A study of Mus musculus with 29 samples.

Results

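Chemokines are small secreted proteins that steer leucocytes by binding receptors coupled to G proteins, and atypical receptors bind ligands without that signal and in many cases remove them. In allergic airways disease the eotaxins recruit eosinophils, Ccl17 and Ccl22 recruit type 2 helper T cells through Ccr4, and Ccl20 recruits dendritic cells and lymphocytes through Ccr6. In vertebrate genomes most cytosines of the CpG dinucleotide carry a methyl group, while CpG-dense promoters usually stay free of it and the methylation of CpG-poor promoters and enhancers differs between cell types.

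DNA methylation (%DNAm, the percentage of methylated calls) was measured by whole genome methyl-seq (WGMS) in lung DNA of 29 BALB/c offspring, given by the methods as female and 13 weeks old, and is described here over the windows of the chemokine and chemokine receptor genes. The members were all autosomal windows whose gene symbol begins with a Ccl, Cxcl, Cx3cl, Xcl, Ccr, Cxcr, Cx3cr, Xcr or Ackr stem followed by a number, with Ccrl2 and Ccr1l1. They came to 205 of the 260686 windows in the table and belonged to 47 genes on 9 chromosomes, while 2 windows on a sex chromosome and 2 further windows were left out. A window held a median of 49 CpG dinucleotides over a median of 4141 bp, so a value is an average over about a promoter and its neighbourhood and not the state of a single CpG.

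The offspring of dams given intranasal saline (Sham) or fine airborne particulate matter, PM2.5 (PM), before mating, through gestation and until weaning were later sensitised with alum to ovalbumin (OVA), an egg protein, and breathed OVA aerosol (Sham-OVA and PM-OVA), or were controls that breathed saline (Sham and PM). Libraries numbered 7 in each of Sham, Sham-OVA and PM and 8 in PM-OVA, each labelled as a separate replicate. The pups never breathed the particles themselves, and the labels do not tie a library to a litter. The DNA came from a piece of whole lung, so it pools airway, vessel, alveolar and inflammatory cells, and a change in the share of a cell type cannot be told apart from a change of methylation within cells.

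The members had a value in every library, and 205 of 205 entered the test. Averaged over the member windows, %DNAm was 65.6 ± 0.412% in Sham (SD, n = 7), 64.4 ± 0.685% in Sham-OVA (n = 7), 65.8 ± 0.340% in PM (n = 7) and 64.1 ± 0.381% in PM-OVA (n = 8). Over all tested windows the same means were 69.1, 68.8, 69.4 and 68.4%. The library of Sham replicate 1 stood apart, with values in 1224 Y chromosome windows against 29 to 46 in the others, which goes against the stated sex for that library, and counts are therefore also given without it. Depth per window is unknown, since the table holds percentages alone.

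Several window names reach far beyond the gene. In RefSeq (GRCm38.p6) 125 of the 205 windows overlapped the gene they are named for, and the other 80 mostly followed long transcript models of Ccl1 (23 of 24 windows), Cx3cr1 (39 of 45), Ccr9 (9 of 12) and Cxcr5 (8 of 12). In all, 34 windows overlapped another protein-coding gene, and 44 held the RefSeq start of their own gene. A window beyond the RefSeq gene is named as such wherever its value is given.

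To show what lies at the start of the genes on which the results turn, the 250 bases upstream of 8 RefSeq starts (GRCm38.p6, 5′ to 3′ in the direction of the gene) are printed in lower case with each CpG in capitals. Those of Ccr6 lie at chr17:8235793-8236042 and chr17:8242276-8242525 (+ strand), Cxcr2 at chr1:74153744-74153993 (+), Ccl3 at chr11:83649379-83649628 (-), Ackr2 at chr9:121898105-121898354 (+), Cx3cl1 at chr8:94771930-94772179 (+), Cxcr4 at chr1:128592300-128592549 (-) and Cxcl14 at chr13:56296552-56296801 (-).
Ccr6, upstream start: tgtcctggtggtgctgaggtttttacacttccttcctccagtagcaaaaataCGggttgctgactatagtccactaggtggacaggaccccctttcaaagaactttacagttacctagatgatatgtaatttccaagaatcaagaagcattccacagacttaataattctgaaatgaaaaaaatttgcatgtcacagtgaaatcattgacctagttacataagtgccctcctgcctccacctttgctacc
Ccr6, downstream start: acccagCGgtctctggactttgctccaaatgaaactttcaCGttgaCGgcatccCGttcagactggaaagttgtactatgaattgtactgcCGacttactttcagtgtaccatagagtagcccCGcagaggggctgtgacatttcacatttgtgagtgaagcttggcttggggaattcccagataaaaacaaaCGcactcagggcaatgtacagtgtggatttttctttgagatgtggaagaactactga
Cxcr2: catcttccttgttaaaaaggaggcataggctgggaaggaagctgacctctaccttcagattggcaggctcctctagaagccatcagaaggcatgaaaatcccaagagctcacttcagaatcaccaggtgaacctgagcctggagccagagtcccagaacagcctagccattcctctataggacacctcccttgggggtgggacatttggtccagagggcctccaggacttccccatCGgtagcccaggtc
Ccl3: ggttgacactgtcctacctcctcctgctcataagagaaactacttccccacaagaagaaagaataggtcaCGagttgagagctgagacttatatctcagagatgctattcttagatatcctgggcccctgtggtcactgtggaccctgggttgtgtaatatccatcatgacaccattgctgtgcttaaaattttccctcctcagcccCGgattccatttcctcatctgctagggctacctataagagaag
Ackr2: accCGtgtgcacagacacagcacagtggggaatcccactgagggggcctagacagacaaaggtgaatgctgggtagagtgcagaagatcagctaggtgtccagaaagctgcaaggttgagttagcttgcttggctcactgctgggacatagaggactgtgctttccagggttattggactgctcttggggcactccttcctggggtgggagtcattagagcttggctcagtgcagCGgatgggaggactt
Cx3cl1: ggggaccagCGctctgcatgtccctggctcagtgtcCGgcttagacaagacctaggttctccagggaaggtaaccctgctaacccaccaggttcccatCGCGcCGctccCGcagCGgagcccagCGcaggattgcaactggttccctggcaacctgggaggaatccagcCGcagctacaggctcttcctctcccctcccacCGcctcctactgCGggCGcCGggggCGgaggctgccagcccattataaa
Cxcr4: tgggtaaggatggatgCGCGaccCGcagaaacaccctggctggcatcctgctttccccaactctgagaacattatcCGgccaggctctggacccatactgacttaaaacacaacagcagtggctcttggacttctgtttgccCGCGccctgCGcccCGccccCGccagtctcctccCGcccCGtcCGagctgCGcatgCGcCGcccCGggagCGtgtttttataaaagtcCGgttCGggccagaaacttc
Cxcl14: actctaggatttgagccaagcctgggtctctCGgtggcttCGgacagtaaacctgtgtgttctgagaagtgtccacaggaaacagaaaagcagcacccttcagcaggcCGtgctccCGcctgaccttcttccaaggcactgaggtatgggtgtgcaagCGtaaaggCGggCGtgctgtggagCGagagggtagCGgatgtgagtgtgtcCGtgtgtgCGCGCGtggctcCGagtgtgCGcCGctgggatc

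The sequences differ widely in CpG content. The upstream Ccr6 start and Cxcr2 held 1 CpG each, Ccl3 and Ackr2 held 2, the downstream Ccr6 start held 7, and Cx3cl1, Cxcl14 and Cxcr4 held 14, 16 and 19. Over the 42 promoters of 36 member genes found in the RefSeq table the median was 4 CpGs, against 6 over its 32851 promoters. Of the 42, 20 held 3 CpGs or fewer (37.8% of all promoters did) and 6 held 12 or more (33.5% of all promoters did).

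Without challenge, methylation was low at the CpG-dense windows. Of the 44 windows with a RefSeq start, 23 had a Sham mean of 70% or more, 10 lay from 50 to 70%, 7 from 10 to 50%, and 4 lay under 10%, namely those of Ccrl2, a non-signalling receptor that binds chemerin at the cell surface, Cxcr4, the receptor of Cxcl12, Cxcl12 itself and Cxcl14. Mean %DNAm in Sham was 0.767% at Cxcr4 (chr1:128591919-128593162), 1.59% at Cxcl14 (chr13:56296218-56296838), 2.43% at Ccrl2 (chr9:111056156-111058007) and 2.495% at Cxcl12 (chr6:117168006-117168753). The start windows of Cx3cl1 (17.3%) and Ackr3 (19.8%) were intermediate. The 9 member windows with 50 or more CpGs per kb had Sham means between 0.296 and 4.48%. Both ends of that range lay beyond the RefSeq gene. The lowest was named for Cx3cr1 but lay at Csrnp1 (chr9:119983636-119983966), and the highest was named for Ccr9 but lay at Lztfl1.

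**Figure D1:**
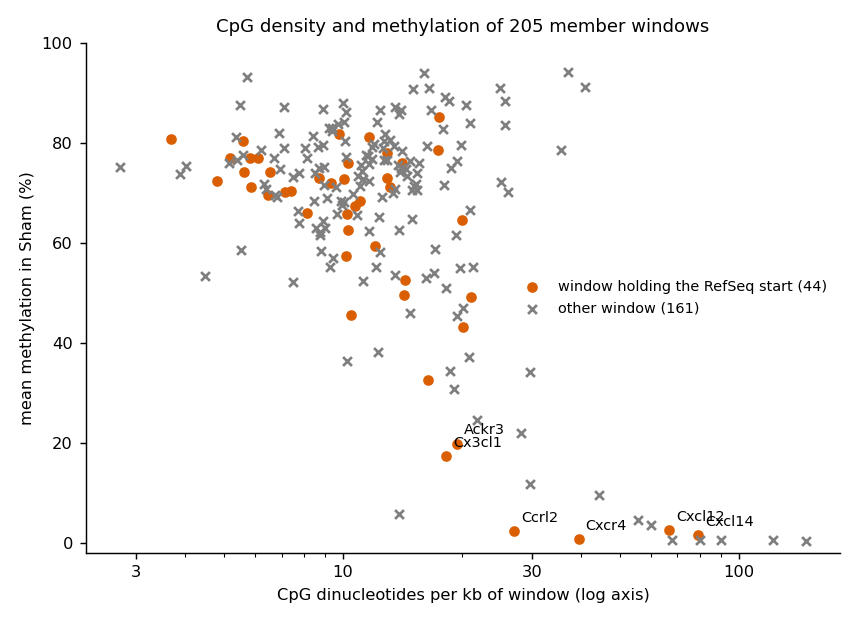
Each point is 1 of the 205 member windows, with CpG dinucleotides per kb on a log axis against mean methylation (%) in the 7 Sham libraries, as circles for the 44 windows that hold a RefSeq start and crosses for the other 161. The start windows of Ccrl2, Cxcr4, Cxcl12 and Cxcl14 lie under 10%, and 23 start windows lie at 70% or more.

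The question of the OVA comparison was which windows differ after allergen challenge, and it was asked in each maternal arm on separate libraries. Methylation fell at more chemokine and receptor windows than it rose at, in both arms, and the changes were small, with a median size of 3.69 percentage points among called windows in the Sham arm and 3.58 in the PM arm. In the Sham arm 82 of 205 windows (40%) were called at an adjusted p under 0.05, against 35.6% of all tested windows. Of these, 63 were lower (30.7%, against 22.3% of all windows) and 19 were higher (9.27%, against 13.3%). In the PM arm 91 were called (44.4%, against 44.1%), of which 78 were lower (38%, against 34.8%) and 13 higher (6.34%, against 9.26%). Called shares lay a little above that of all windows in the Sham arm and level with it in the PM arm, and the tilt to lower values was larger in the members than in all windows.

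A differentially methylated region (DMR) was a called window whose group means differed by 10 percentage points or more. No member window was a DMR in the Sham arm (0 of 205, against 0.775% of all windows), where the same moderated test called 82 members without the size limit, and 1 was in the PM arm (0.488%, against 0.584%). Libraries were also centred, by subtracting from each its median deviation, over windows, from the mean of the window across libraries. The PM arm then held 47 lower (22.9%, against 18.7% of all windows so centred) and 28 higher windows (13.7%, against 18.9%) and no DMR. The Sham arm held 52 lower (25.4%, against 17.8%) and 25 higher (12.2%, against 18.3%). These centred shares of all windows are the ones to set beside every centred count below. Without Sham replicate 1 the Sham arm had 63 lower and 18 higher called windows, and the PM arm had 79 and 13. Shares over all windows are not given for that fit. On the 125 windows that overlap the RefSeq gene, 57 were called in the Sham arm (45.6%, 45 lower and 12 higher) and 65 in the PM arm (52%, 55 lower and 10 higher), against 35.6% and 44.1% of all windows, a choice of windows made after the values were seen.

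The arms resembled each other window by window, about as they did over all windows. Lower values were called in both arms at 54 windows of 27 genes (26.3%, against 19.7% of all windows) and higher values at 12 windows of 11 genes (5.85%, against 7.57%), with no window called in opposite directions. Genes are counted here by window name. Of the 12 higher windows 3 lay beyond the RefSeq gene, among them all those named for Cx3cr1 and Cxcr5. In the Sham arm alone 16 were called (7.8%, against 8.28%), in the PM arm alone 25 (12.2%, against 16.8%) and in neither 98 (47.8%, against 47.7%). The sign of the difference was shared by 174 of 205 windows (84.9%), against 81.8% of all windows, and across the members the differences correlated with Pearson's r = 0.902 and a Spearman coefficient of 0.839, against 0.879 and 0.843 over all windows. The correlation is across windows, several of which belong to 1 gene, and the arms share no library. A call in a single arm does not show that the arms differ, and the test of that difference is given at the end.

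**Figure D2:**
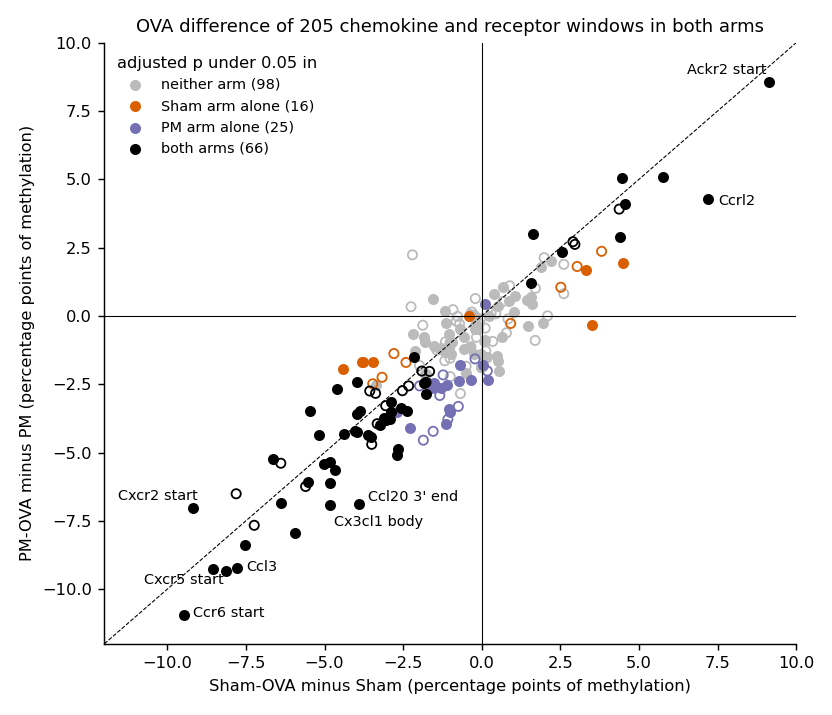
Each point is 1 of the 205 member windows, with the difference of group means in percentage points for Sham-OVA minus Sham (x axis) against PM-OVA minus PM (y axis). Colours show the arms in which a window was called, filled points overlap the RefSeq gene, open points lie beyond it, and the dashed line marks equal differences. The Ccr6 start window lies lowest and the Ackr2 start window highest on both axes.

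Ccr6, the receptor of Ccl20 on dendritic cells, B cells and Th17 cells, had the largest losses among the members. In the window with its upstream RefSeq start (chr17:8234598-8239367, 273 exonic bases, all UTR) the lowest, median and highest values were 64.9, 65.6 and 67.8% in Sham, 51.9, 55.6 and 60.5% in Sham-OVA, 63.9, 66.5 and 69.97% in PM and 52.7, 56.6 and 59.0% in PM-OVA. No OVA library reached the lowest unchallenged library of its arm. The mean fell by 9.47 points in the Sham arm (difference in the log2 ratio of methylated to unmethylated percentage -0.56 ± 0.071, SE, adjusted p = 8.34e-07) and by 10.9 points in the PM arm (-0.65 ± 0.069, adjusted p = 3.67e-08), and the latter was the only DMR. Its 10-point limit was missed when libraries were centred, although the window remained called, and in the Sham arm it was passed without Sham-OVA replicate 2 (-10.05) or replicate 7 (-10.16).

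The adjoining Ccr6 window (chr17:8239368-8242608), with the downstream start and its 7 CpGs, fell from 70.6 ± 2.43% to 62.1 ± 2.73% (SD) in the Sham arm (adjusted p = 2.73e-05) and from 70.5 ± 2.60% to 61.2 ± 2.89% in the PM arm (adjusted p = 4.51e-06). Its groups did not overlap in either arm. At the far end of the gene the direction turned, and the last window (chr17:8256880-8260862, 186 coding and 76 UTR bases) rose by 5.78 points (adjusted p = 0.00168) and 5.09 points (adjusted p = 0.00316). Of the 6 Ccr6 windows, 2 were lower and 1 higher in the Sham arm, and 4 were lower and 1 higher in the PM arm. The downstream-start and far-end windows were picked after their values were seen.

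Ackr2, an atypical receptor that scavenges inflammatory CC chemokines, showed the reverse layout. Its start window (chr9:121895489-121900301, picked after its values were seen) had values of 55.1, 56.3 and 63.3% in Sham and 61.3, 68.9 and 71.0% in Sham-OVA, and of 55.3, 58.4 and 61.9% in PM and 62.3, 67.7 and 70.9% in PM-OVA, as lowest, median and highest. The groups overlapped in the Sham arm and were apart in the PM arm. The gain of 9.14 points in the Sham arm (log2 ratio 0.55 ± 0.10, adjusted p = 1.01e-04) and 8.55 points in the PM arm (0.52 ± 0.097, adjusted p = 1.07e-04) was the largest among the members. It reached 10.12 points without Sham replicate 4 and 10.01 without Sham-OVA replicate 5.

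The 3′ window of Ackr2 (chr9:121908797-121911525, 898 coding and 1380 UTR bases) fell instead, from 82.7 ± 1.04% to 77.2 ± 0.979% (adjusted p = 1.65e-07, the smallest of all members in the Sham arm) and from 81.1 ± 0.875% to 77.6 ± 1.42% (adjusted p = 4.61e-05). Its groups did not overlap in either arm. The other Ackr2 windows were also lower, at both in the Sham arm and at 1 in the PM arm.

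**Figure D3:**
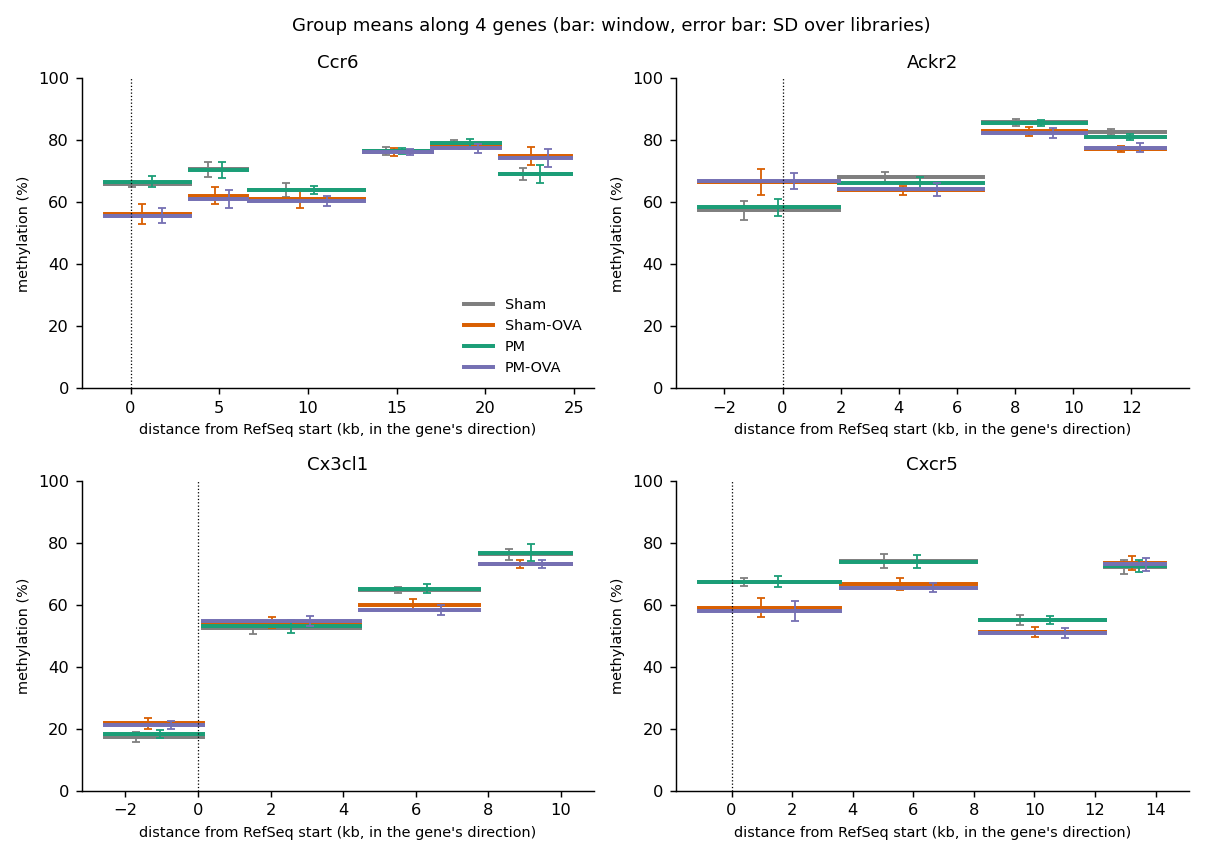
Mean methylation (%) of the 4 groups in each window along Ccr6, Ackr2, Cx3cl1 and Cxcr5, against distance from the RefSeq start in kb in the direction of the gene. Horizontal bars span the windows that overlap the RefSeq gene and error bars are SD over libraries. OVA groups lie below the unchallenged groups at the starts of Ccr6 and Cxcr5 and above them at the starts of Ackr2 and Cx3cl1.

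Among the ligands, the inflammatory CC chemokines, which draw monocytes, T cells and granulocytes, mostly fell. Of 8 windows of 6 genes, 6 were lower (75%, against 22.3% of all windows in the Sham arm and 34.8% in the PM arm) and none higher in each arm, with a median difference of -3.925 points in the Sham arm and -3.85 in the PM arm, against -0.414 and -1.03 for all windows. When libraries were centred these counts were 6 and 4 lower, with medians of -3.53 and -2.87. Ccl12 was called in neither arm.

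Ccl3, a ligand of Ccr1, has a single window that spans its start (chr11:83646933-83653554). The lowest, median and highest values were 69.6, 70.2 and 72.2% in Sham and 59.5, 62.4 and 65.9% in Sham-OVA, and 68.5, 71.3 and 74.2% in PM and 59.6, 61.2 and 66.2% in PM-OVA. The groups were apart in both arms, with losses of 7.80 points (log2 ratio -0.49 ± 0.069, adjusted p = 3.80e-06) and 9.23 points (-0.59 ± 0.067, adjusted p = 1.27e-07). Ccl4, its neighbour with shared receptors, fell by 3.51 and 4.43 points (adjusted p = 0.00682 and 5.68e-04), and the start window of Ccl5 by 3.88 and 3.48 points (adjusted p = 0.00296 and 0.00405).

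Ccl9, a macrophage-derived ligand of Ccr1, was lower in both of its windows. The 3′ window (chr11:83572006-83577095) went from 71.1 ± 1.43% to 64.7 ± 2.16% in the Sham arm (adjusted p = 6.00e-06) and from 71.8 ± 1.36% to 65.0 ± 1.80% in the PM arm (adjusted p = 8.92e-07), without overlap of the groups. Ccl7, a monocyte attractant, fell by 3.97 and 2.43 points (adjusted p = 1.99e-04 and 0.00836).

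Of the type 2 ligands, 13 of 33 windows were lower in the Sham arm (39.4%, against 22.3% of all windows) and 20 in the PM arm (60.6%, against 34.8%), none was higher, and the medians were -1.43 and -2.56 points, against -0.414 and -1.03 for all windows. Of the 33 windows 23 belonged to the long Ccl1 model beyond the RefSeq gene, of which 6 and 11 were lower. With libraries centred the counts were 10 lower and 2 higher in the Sham arm, and 12 lower and 1 higher in the PM arm.

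Ccl22, a dendritic cell and macrophage ligand of Ccr4, fell at its start window (chr8:94743326-94747534) from 81.0 ± 1.63% to 76.2 ± 2.56% in the Sham arm (adjusted p = 3.16e-04) and from 82.1 ± 1.42% to 76.0 ± 1.74% in the PM arm (adjusted p = 6.92e-06). Ccl17, the other Ccr4 ligand, lies next to it on chromosome 8 and fell by 4.65 and 5.64 points over its start window (adjusted p = 0.00242 and 1.81e-04). For both, the groups overlapped in the Sham arm and were apart in the PM arm.

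The eotaxins attract eosinophils. Ccl24 (eotaxin-2) fell in its 3′ window (chr5:135567127-135570512) by 5.52 and 6.08 points (adjusted p = 3.36e-05 and 3.86e-06) and in its start window by 4.62 and 2.68 points (adjusted p = 0.00133 and 0.0388), the PM call of which was lost in 10 of 38 alternative settings. Ccl11 (eotaxin-1), in its single window (chr11:82056476-82064876), had a lowest, median and highest value of 76.3, 76.6 and 79.0% in Sham and 72.6, 76.7 and 77.3% in Sham-OVA, against 77.5, 77.8 and 79.2% in PM and 73.2, 74.1 and 76.3% in PM-OVA. The Sham groups overlapped and differed by -1.01 points (adjusted p = 0.255), whereas the PM groups were apart and the mean fell by 3.51 points (adjusted p = 9.19e-05). The test of the arms against each other gave an adjusted p of 0.598, so a difference between the arms was not shown. Ccl26 (eotaxin-3) was called in none of its 2 windows in the Sham arm and was lower in 1 in the PM arm.

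Ccl1, a ligand of Ccr8, was called in its only window on the RefSeq gene, which holds the start, with losses of 2.92 and 3.78 points (adjusted p = 0.0110 and 8.32e-04). The most strongly called window under its name (chr11:82202254-82209159) lay beyond the RefSeq gene and fell by 5.60 and 6.24 points (adjusted p = 6.48e-06 and 7.69e-07). Ccl8, a further Ccr8 ligand in mice, fell by 2.56 and 3.37 points (adjusted p = 0.00185 and 7.38e-05).

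**Figure D4:**
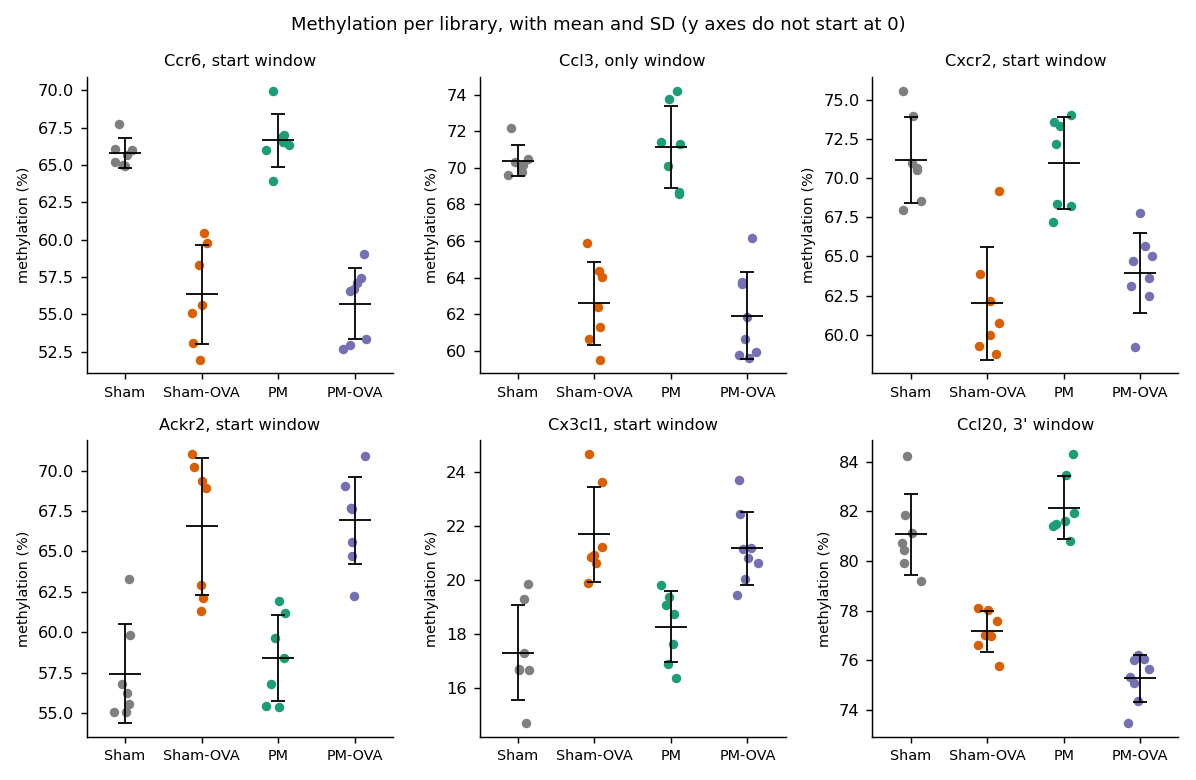
Methylation (%) of every library at 6 windows in Sham, Sham-OVA, PM and PM-OVA, with the group mean and SD as bars, on y axes that do not start at 0. OVA group means lie lower at Ccr6, Ccl3, Cxcr2 and the 3′ window of Ccl20 and higher at the start windows of Ackr2 and Cx3cl1. Libraries overlap at Cxcr2 in both arms, at Ackr2 in the Sham arm and at Cx3cl1 in the PM arm.

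The mucosal and homeostatic CC ligands, which guide lymphocytes to epithelia and lymphoid tissue, changed in few windows, with 3 of 17 lower in the Sham arm (17.6%, against 22.3% of all windows) and 4 in the PM arm (23.5%, against 34.8%) and none higher, although with libraries centred 2 were lower and 2 higher in the PM arm. The lower windows were 1 each of Ccl20, Ccl25 and Ccl28 in the Sham arm, and 1 of Ccl20, 2 of Ccl25 and 1 of Ccl28 in the PM arm. For Ccl20, the epithelial ligand of Ccr6, the 3′ window (chr1:83118983-83128266) covers the last 185 bases of the RefSeq gene, which ends at 83119167. Most of its 9284 bp thus lie downstream of the gene. It had values of 79.2, 80.7 and 84.3% in Sham, 75.8, 77.0 and 78.1% in Sham-OVA, 80.8, 81.6 and 84.3% in PM and 73.5, 75.5 and 76.2% in PM-OVA. The groups were apart in both arms and the means fell by 3.92 points (log2 ratio -0.33 ± 0.059, adjusted p = 7.39e-05) and 6.89 points (-0.58 ± 0.057, adjusted p = 1.54e-08, the smallest of the members in that arm). The window at the Ccl20 start differed by -0.193 and -0.305 points (adjusted p = 0.891 and 0.776).

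The neutrophil-attracting CXC ligands, which act on Cxcr2, were called in few windows. Of 9 windows none was lower (against 22.3% of all windows) and 1 higher (11.1%, against 13.3%) in the Sham arm, and 2 were lower (22.2%, against 34.8% of all windows) and none higher in the PM arm. With libraries centred the PM calls turned to none lower and 3 higher, and the PM median from -0.940 to 0.0394 points. The window called higher was that of Cxcl1, which went from 43.1 ± 1.482% to 47.6 ± 1.82% in the Sham arm (adjusted p = 0.00331) and differed by 1.94 points in the PM arm (adjusted p = 0.164). Cxcl15, the lung-expressed lungkine, differed at its start by -1.04 and -1.12 points (adjusted p = 0.353 and 0.275).

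Cxcl9, an interferon-inducible ligand for T cells, was lower in 2 of 3 windows in the Sham arm and 3 of 3 in the PM arm, with medians of -4.37 and -4.34 points. Its start window (chr5:92327949-92331490) fell by 5.94 and 7.94 points (adjusted p = 2.94e-04 and 5.33e-06). Of the remaining ligands, 5 of 19 windows were lower (26.3%, against 22.3% of all windows) and 3 higher (15.8%, against 13.3%) in the Sham arm, and 7 lower (36.8%, against 34.8%) and 4 higher (21.1%, against 9.26%) in the PM arm. Their median was -0.232 points in the Sham arm and -1.51 in the PM arm, and became 0.164 and -0.527 when libraries were centred, with 4 lower and 4 higher windows in the Sham arm and 4 lower and 6 higher in the PM arm.

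Cx3cl1 (fractalkine), a membrane-bound adhesive chemokine of endothelium and epithelium, went both ways along the gene. Its CpG-rich start window (chr8:94769614-94772303) rose from a lowest, median and highest value of 14.7, 16.7 and 19.9% in Sham to 19.9, 20.9 and 24.7% in Sham-OVA, and from 16.4, 18.8 and 19.8% in PM to 19.5, 20.97 and 23.7% in PM-OVA. The groups were apart in the Sham arm and overlapped in the PM arm, with gains of 4.38 and 2.90 points (adjusted p = 1.26e-04 and 0.00417). The gene body window (chr8:94776649-94779934) fell by 4.81 and 6.92 points (adjusted p = 6.82e-05 and 2.22e-07), without overlap in either arm.

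Of the 13 member windows with a Sham mean under 10%, 3 were higher (23.1%, against 18.9% of all windows in that range) and 1 lower in the Sham arm, and 3 higher (23.1%, against 16.6%) and none lower in the PM arm. The window called lower was the one beside the Cxcr4 start, at 0.457% in Sham and 0.0655% in Sham-OVA (adjusted p = 0.0363), and was picked after its values were seen. Both levels lay near the floor, and this window was not followed over the alternative settings. The start window of Cxcl14, an epithelial chemokine, rose from 1.59 ± 0.386% to 3.14 ± 0.643% in the Sham arm (adjusted p = 3.38e-04) and from 1.70 ± 0.433% to 2.90 ± 0.958% in the PM arm (adjusted p = 0.00262), in groups that overlapped. Over the alternative settings the PM gain ran from 0.944 to 2.18 points and stayed called. Within Cxcl16, a ligand of memory T cells, the window with part of the coding sequence (chr11:70458655-70459759), which overlaps Zmynd15, rose by 1.63 and 2.98 points (adjusted p = 0.0405 and 2.63e-04), and the Sham call was lost in 10 of 38 settings. The Cxcl14 and Cxcl16 windows were also picked after their values were seen. The Cxcl16 start window differed by 0.534 and -2.03 points (adjusted p = 0.664 and 0.0555), and the latter p fell under 0.05 when any 1 of 6 libraries was left out, among them PM replicates 5 and 6. The Cxcl12 start differed by 0.386 and 0.802 points (adjusted p = 0.393 and 0.0597, the latter under 0.05 without PM replicate 7, PM-OVA replicate 5 or Sham replicate 2) and the Cxcr4 start by -0.251 and 0.0444 points (adjusted p = 0.589 and 0.866).

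Further along Cxcl12, the window over the end of the gene (chr6:117178436-117181971, 2932 UTR bases) fell by 2.68 and 5.09 points (adjusted p = 0.00347 and 1.22e-06). Cxcl13, the B cell attractant of lymphoid follicles, differed by -1.51 points at its start in the Sham arm (adjusted p = 0.0914) and fell by 2.47 points in the PM arm (adjusted p = 0.00392, lost when libraries were centred).

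**Figure D5:**
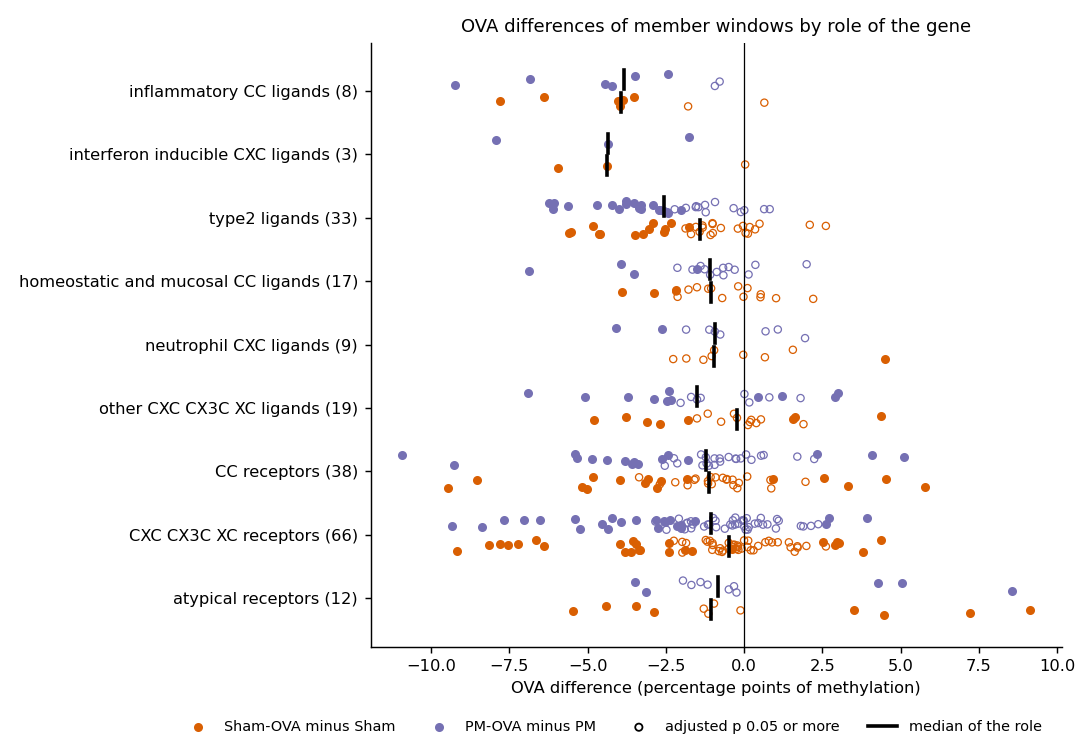
OVA differences in percentage points of the 205 member windows by the role of their gene, for the Sham arm and the PM arm, with filled points for an adjusted p under 0.05 and bars at the median of each role. Inflammatory CC ligands have medians of -3.925 and -3.85 points, and the largest gains lie among atypical receptors.

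Among the receptors, calls went both ways, and without centring the share of lower windows in the PM arm lay at or below the 34.8% of all windows. Of 38 CC receptor windows, 11 were lower (28.9%, against 22.3% of all windows) and 5 higher (13.2%, against 13.3%) in the Sham arm, and 13 were lower (34.2%) and 3 higher (7.89%, against 9.26%) in the PM arm. Of 66 windows of CXC, CX3C and XC receptors, 19 were lower (28.8%) and 6 higher (9.09%) in the Sham arm, and 21 lower (31.8%) and 3 higher (4.55%) in the PM arm. The atypical receptors had 4 of 12 windows lower and 4 higher (33.3% each) in the Sham arm, and 2 lower (16.7%) and 3 higher (25%) in the PM arm. With libraries centred the PM arm had 9 lower and 5 higher of 38 CC receptor windows and 12 lower and 8 higher of 66 windows of CXC, CX3C and XC receptors. Of all windows so centred 18.7% were lower and 18.9% higher, so the lower share of the CC receptors then lay above that of all windows. The PM median of the atypical receptors turned from -0.832 to 0.148 points at unchanged counts.

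Cxcr2, the neutrophil receptor, fell in both of its windows. In the start window (chr1:74153108-74156911) the lowest, median and highest values were 68.0, 70.7 and 75.6% in Sham, 58.8, 60.8 and 69.2% in Sham-OVA, 67.2, 72.2 and 74.0% in PM and 59.2, 64.2 and 67.8% in PM-OVA. The OVA group means lay lower in each arm, with groups that overlapped. The losses were 9.18 points (log2 ratio -0.58 ± 0.098, adjusted p = 4.05e-05) and 7.05 points (-0.46 ± 0.095, adjusted p = 3.46e-04), and the former became -10.38 points without Sham-OVA replicate 7.

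Cxcr5, the receptor by which B cells and follicular helper T cells enter follicles, fell over its start (chr9:44522857-44527511) and the adjoining window downstream (chr9:44518363-44522844). At the start the lowest, median and highest values were 65.7, 67.4 and 69.6% in Sham, 55.5, 59.6 and 64.1% in Sham-OVA, 64.1, 67.5 and 69.9% in PM and 53.5, 57.6 and 63.6% in PM-OVA. The groups were apart in both arms, and the means fell by 8.15 and 9.32 points (adjusted p = 1.60e-05 and 1.14e-06). The PM difference passed 10 points without PM-OVA replicate 3 (-10.12). The downstream window, picked after its values were seen, fell by 7.54 and 8.38 points (adjusted p = 2.73e-06 and 3.01e-07). A window beyond the RefSeq gene on its 5′ side (chr9:44537647-44541247) fell by 7.23 and 7.66 points (adjusted p = 1.03e-06 and 1.58e-07).

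Ccr4, the Th2 receptor of Ccl17 and Ccl22, fell in 2 of 6 windows in the Sham arm and 3 in the PM arm, and its losses lay within the gene. The window at chr9:114500968-114503576 fell by 5.18 and 4.37 points (adjusted p = 3.53e-05 and 1.23e-04) and that at chr9:114495242-114498485 by 4.82 and 5.33 points (adjusted p = 1.16e-04 and 1.46e-05). In the window with its RefSeq start, which overlaps Trim71, the differences were -1.55 and 0.621 points (adjusted p = 0.143 and 0.571).

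Ccr7, the lymph node homing receptor of dendritic and naive T cells, fell at its start (chr11:99151616-99156474) by 5.03 and 5.41 points (adjusted p = 0.00127 and 3.03e-04). Ccr8, a receptor of Th2 and regulatory T cells, differed at its start by -1.81 and -2.14 points (adjusted p = 0.225 and 0.118, the latter 0.0461 without PM-OVA replicate 3) and fell in the window after it by 3.96 and 3.58 points (adjusted p = 0.00892 and 0.00875). Ccr1, a monocyte and neutrophil receptor, fell by 3.06 and 3.81 points (adjusted p = 0.00181 and 9.68e-05).

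Ccr2, the receptor by which monocytes leave the marrow, went the other way. The Ccr2 start window (chr9:124092474-124102094) rose from 77.0 ± 1.30% to 79.6 ± 1.45% and from 77.4 ± 1.62% to 79.8 ± 1.19% (adjusted p = 0.00955 and 0.0111). The groups overlapped in both arms.

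Cx3cr1, the fractalkine receptor of monocytes and macrophages, fell at its start (chr9:120068166-120072227) by 2.39 points in the Sham arm (adjusted p = 0.0497, lost in 20 of 38 settings) and 3.46 points in the PM arm (adjusted p = 0.00320). Of its 6 windows on the RefSeq gene 3 were lower and none higher in each arm. The best called window of that name (chr9:119975492-119979485) lay at Csrnp1, beyond the RefSeq gene, and fell by 7.81 and 6.51 points (adjusted p = 7.63e-06 and 2.90e-05). Near by, also at Csrnp1, the window chr9:119983967-119985616 rose by 4.37 and 3.91 points (adjusted p = 0.00124 and 0.00200), and was picked after its values were seen.

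Of the other atypical receptors, Ccrl2 rose in the window with its coding sequence (chr9:111053449-111056132, 784 coding bases) from 34.3 ± 2.56% to 41.5 ± 2.61% (adjusted p = 5.91e-05) and from 36.7 ± 2.22% to 41.0 ± 2.14% (adjusted p = 0.00602). Ackr1, the chemokine-binding receptor of venules and red cells, rose at its start, which overlaps Cadm3, by 3.51 points in the Sham arm (adjusted p = 0.00855) and differed by -0.326 points in the PM arm (adjusted p = 0.815). The start of Ackr3, a scavenger of Cxcl12, differed by -1.15 and -0.247 points (adjusted p = 0.437 and 0.900). The adjoining Ackr3 window (chr1:90205637-90210942), picked after its values were seen, was called higher in both arms. Its mean went from 57.0 to 61.5% in the Sham arm and from 55.0 to 60.0% in the PM arm. Of the 4 Ackr3 windows 1 was called lower, in the Sham arm alone.

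The question of the maternal comparison was whether PM2.5 given to the dams changed methylation in the offspring, with and without OVA. With the moderated test no member window was called for PM against Sham without OVA (0% of all windows were), with OVA (0%) or for the difference between the OVA responses of the arms (0%). At an unadjusted p under 0.05 there were 9 member windows without OVA (4.39%, against 5.79% of all windows), 11 with OVA (5.37%, against 5.96%) and 12 for the difference of the responses (5.85%, against 7.4%). These shares lay at or below those of all windows.

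The smallest p without OVA was that of the 3′ window of Ackr2, with a PM minus Sham difference of -1.56 points (adjusted p = 0.829). With OVA it was a window within Ccl28, a mucosal ligand (chr13:119631663-119636451), at 36.8 ± 2.68% in Sham-OVA and 32.9 ± 0.547% in PM-OVA (adjusted p = 0.816). For the difference of the responses it was a window named for Ccr9 beyond the RefSeq gene at Lztfl1 (chr9:123717429-123718327), at 4.48%, 5.40%, 5.04% and 4.76% in Sham, Sham-OVA, PM and PM-OVA (adjusted p = 0.560). At the 3′ window of Ccl20, where the PM loss was larger in value, this test gave an adjusted p of 0.571.

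Windows of genes that mark cell types changed in different directions. Of 48 windows of 8 pan-leucocyte genes, 26 were lower (54.2%, against 22.3% of all windows) and 12 higher (25%, against 13.3%) in the Sham arm, and 31 lower (64.6%, against 34.8%) and 7 higher (14.6%, against 9.26%) in the PM arm. Their mean level ran from 66.5 to 68.4% in Sham, 61.9 to 64.5% in Sham-OVA, 67.3 to 68.0% in PM and 62.0 to 63.8% in PM-OVA. Of 9 windows of 4 eosinophil genes, 7 and 8 were lower (77.8% and 88.9%) and none higher, with mean levels of 75.02 to 76.8% in Sham against 69.96 to 73.2% in Sham-OVA and of 75.2 to 76.9% in PM against 69.1 to 71.8% in PM-OVA. Of 37 myeloid windows, 16 were lower (43.2%) and 7 higher (18.9%) in the Sham arm and 18 lower (48.6%) and 5 higher (13.5%) in the PM arm. Of 61 T cell windows, 23 were lower (37.7%) and 9 higher (14.8%), and 24 lower (39.3%) and 7 higher (11.5%). Of 68 B cell windows, 17 were lower (25%) and 18 higher (26.5%) in the Sham arm and 22 lower (32.4%) and 15 higher (22.1%) in the PM arm. Of 65 smooth muscle and fibroblast windows, 21 were lower (32.3%) and 15 higher (23.1%), and 25 lower (38.5%) and 10 higher (15.4%). Of 146 endothelial windows, 32 were lower (21.9%) and 45 higher (30.8%) in the Sham arm and 47 lower (32.2%) and 38 higher (26%) in the PM arm. Of 59 epithelial windows, 4 were lower (6.78%) and 18 higher (30.5%) in the Sham arm and 7 lower (11.9%) and 10 higher (16.9%) in the PM arm. Their part in the results at chemokine genes was not tested.

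Downstream of the receptors, 590 windows of 29 genes for G proteins, arrestins, receptor kinases, phosphoinositide 3-kinase and small GTPase signalling were called lower at 127 (21.5%, against 22.3% of all windows) and higher at 189 (32%, against 13.3%) in the Sham arm, and lower at 174 (29.5%, against 34.8%) and higher at 143 (24.2%, against 9.26%) in the PM arm. Their median differences were 0.251 and -0.0227 points, against -0.414 and -1.03 over all windows and -1.015 and -1.465 over the 205 chemokine and receptor windows. Of 22 windows of 5 chemokine family genes whose symbols fall outside the pattern, 4 were lower (18.2%) and 3 higher (13.6%) in the Sham arm, and 9 lower (40.9%) and 2 higher (9.09%) in the PM arm.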

How the data were processed

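Lung DNA was converted enzymatically and sequenced as paired-end reads. According to the labels and methods, the authors trimmed reads with Trim Galore, called methylation against GRCm38 with DRAGEN and summarised it in SeqMonk as the deposited values, a percent methylation per library over windows of 100 CpG cytosines that overlap an Ensembl gene. No normalisation between libraries is described, and no depth accompanies the values, so no counting error can be given.

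Each percentage was turned into log2((percent + 1)/(101 - percent)). A linear model with 4 group means was fitted to all 29 libraries for the 259167 windows with at least 3 values in every group (1519 were not tested) with limma 3.58.1 in R 4.3.3, 2-sided, with Benjamini-Hochberg adjustment over all tested windows. A window was called at an adjusted p under 0.05. The log2 ratio and its SE are on this scale, and differences in percentage points are those of group means. The test was checked on simulated data.

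Replicates are separate libraries by label. No 2 libraries held identical values. Alternatives to the transformation, thresholds, centring and libraries used were tried. Windows were placed on RefSeq GRCm38.p6 and GENCODE M21 with Python 3.11.15, pandas 2.3.3 and pysam 0.24.0, and plotted with matplotlib 3.10.9. Promoter sequences came from RefSeq, and all 42 equalled the genome.

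The windows named are every DMR, the 12 with the smallest adjusted p per OVA contrast (1 per gene), the smallest p of each other contrast, the window at or nearest the start of 21 listed genes, those said to be picked after their values were seen, and further examples of the role lists (Ccl1, Ccl4, Ccl5, Ccl7, Ccl8, Cxcl1, Ccr1, Ccr8 and the Ccrl2 start), also picked after their values were seen. Members and lists were chosen with earlier results of these data known. Ccl2, Ccl19, Ccl21a and Cxcr6 of the listed genes were not analysed here. Results of 2 receptor genes are not reported here, and the windows of 1 of them remain in the counts over members.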

Additional observations from a re-analysis of the deposited data

Results flagged for a closer look

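Of 180 groups of libraries at 45 named windows, 11 held a library whose gap to its nearest neighbour was large for the range of its group by Dixon's criterion. Chance gives such a gap in about 1 in 20 groups. In Sham these were replicate 2 at the Ccr6 start (67.8%, next 66.1%), replicate 5 at the downstream Ccr6 start (75.7%, next 71.7%), replicate 6 at Ccl3 (72.2%, next 70.5%), replicate 3 at Ccl11 (79%, next 77.3%), and replicate 4 at the starts of Ccr4 (75.5%, next 77.6%) and Cxcr4 (2.84%, next 0.6%). In Sham-OVA they were replicate 4 at the 3′ window of Cxcl12 (79.4%, next 76%) and replicate 7 at the Cxcl16 start (69%, next 65.5%). In PM it was replicate 7 at the Cxcl12 start (4.08%, next 2.5%), and in PM-OVA replicate 8 at the 3′ window of Cxcl12 (71.6%, next 73.5%) and replicate 4 downstream of the Cxcr5 start (68.4%, next 66%). The OVA calls at both of these Ccr6 windows, Ccl3, this Cxcr5 window and the 3′ window of Cxcl12 were kept when each library in turn was left out. The Cxcl12 start was called in the PM arm without PM replicate 7 (1.105 points, adjusted p = 0.0093).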

How the results depend on the processing

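Counts of called member windows stayed within 1.5 times the reported ones under every alternative but the threshold of the study, adjusted p under 1e-06, which left 2 windows in the Sham arm and 8 in the PM arm. Leaving out single libraries gave 72 (without Sham replicate 6) to 84 in the Sham arm and 84 to 95 in the PM arm. A minimum difference of 5 points gave 20 DMRs in the Sham arm and 24 in the PM arm, and centring gave 0 in the PM arm. No share over all windows is given for these alternative counts, so they do not compare the members with all windows. Leaving out single libraries gave 0 to 2 DMRs in the Sham arm (1 without Sham replicate 4, Sham-OVA replicate 2 or Sham-OVA replicate 5, and 2 without Sham-OVA replicate 7) and 1 to 2 in the PM arm (2 without PM-OVA replicate 3). The counts of 0 for PM against Sham and for the difference of the responses held under all alternatives run. Same-numbered libraries of different groups deviated together little if at all (r from -0.0409 to 0.104 over 42 pairs). These replicate numbers come from the sample titles, and some differ from the number in the library name. A pairing by library name was therefore not tested. With the replicate block 77 and 89 windows were called, without it 82 and 91, and the DMR count was unchanged. On the RefSeq span, an alternative added after the data were seen, 57 and 65 of 125 were called.

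Of 67 window calls in an OVA contrast, 9 of 603 combinations with other settings and 33 of 1943 with a library left out lost the call, and none changed sign. The losses were at the starts of Ccl24 (PM arm, 10), Cx3cr1 (Sham arm 20, PM arm 1) and Cxcl13 (PM arm, 1) and at the Cxcl16 coding window (Sham arm, 10), 3 of them under the replicate block. Calls were gained in 3 combinations with other settings and 10 with a library left out, all in the PM arm at the starts of Ccr8, Cxcl12 and Cxcl16. Over the alternatives the PM difference at the Cxcl12 start ran from 0.665 to 1.78 points. Signs reversed at windows that were not called. With libraries centred the PM difference became 0.653 points at the Ackr1 start, 0.733 at the Ackr3 start and 0.674 at the Ccl20 start, and the Sham difference 0.203 at the Ccl20 start and 0.145 at the Cxcr4 start. With single libraries left out the differences lay between -0.881 and 0.182 (Ackr1, PM), -0.808 and 0.382 (Ackr3, PM), -0.639 and 0.0713 (Ccl20, PM), -0.765 and 0.159 (Ccl20, Sham), -0.126 and 0.776 (Cxcl16, Sham), -0.0186 and 0.115 (Cxcr4, PM) and -0.371 and 0.0944 (Cxcr4, Sham), all at start windows. The causes were not tested.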
